A study of Mus musculus with 18 samples.

Results

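The tumour effect of the LLC model was set against that of the KPP model in the tibialis anterior (TA) muscle of mice. The quantity was a difference of differences on the log2 scale, namely LLC tumour minus LLC control less KPP tumour minus KPP control. It rests on 8 of the 18 libraries of the series, in 4 groups of 2, and was computed for all 16096 genes that passed a filter on low counts. Among the 10 pairs that 5 tumour models allow, this pair was selected on the number of genes called in that difference at an adjusted p below 0.05, which was the highest. The count was 1331 of 16096 genes (8.27%), against 964 for the next pair, KPC against KPCML1. That difference and its calls therefore chose the material and are given as a description. The LLC effect and the KPP effect, each tested against its own controls, are the 2 ingredients of the chosen quantity, so they show how the models differ and are not independent evidence that they do. The KPC, KPCML1 and C26 libraries entered the choice through the other 9 pairs and through the filter and estimate of spread shared by all 18 libraries, but not through the 4 group means that are compared. With the 8 libraries alone 840 genes were called.

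LLC is an established line of mouse lung carcinoma cells. Per the labels it was injected intramuscularly, and the controls received PBS. The labels name neither the injected muscle or limb nor the number of LLC cells. In KPP mice the tumour is genetic and was induced by tamoxifen, and the controls are labelled as mice of this model without tumour. In the field KPP mice are known as a pancreatic cancer model in which the alleles are recombined by a tamoxifen-inducible Cre driven by Ptf1a. The labels do not say which alleles the KPP controls carried or whether they received tamoxifen. All 8 muscles came from C57BL/6 mice at endpoint. Age and sex are not given, and the libraries of a group are labelled biological replicates without further detail. The route (injected cells against a genetic tumour), the tumour type, the kind of control and the time to endpoint all differ between the models and cannot be told apart here. The labelled tissue held, since the summed level of 11 genes that define muscle fibres was 117190 to 157910 CPM (counts per 1000000) in each of the 8 libraries.

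Cachexia is a loss of muscle and fat that accompanies many tumours. In muscle it is known for a rise of the ubiquitin ligases Fbxo32 and Trim63, which mark proteins of the fibre for the proteasome, and for changes in ribosome production, mitochondrial metabolism and the extracellular matrix. Levels below are in CPM, scaled to the normalised library size. An effect is the log2 fold change of tumour over control muscle, with 2 libraries per group. It is given ± a standard error (SE) computed back from the effect and the F statistic of edgeR's quasi-likelihood test. This SE therefore rests on the spread within groups over all 18 libraries. It does not show how far the replicates of a single group differed. A gene is said to have risen or fallen where the Benjamini-Hochberg adjusted p of edgeR's quasi-likelihood test was below 0.05. With 2 libraries per group, the p-values of the full fit rest on the spread within groups over all 18 libraries. That spread is drawn towards that of other genes. It says nothing about mice beyond these libraries.

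The 8 libraries held 23320827 to 34573474 fragments. One of them stood apart. On the first 2 principal components of the 8 libraries, with 39.2% and 28.9% of the variance, KPP control replicate 1 lay at -49.6 and -44.1, while KPP control replicate 2 lay at -13.8 and 7.31, beside the LLC controls at -14.8 and 24.7 and at -17.7 and 26.1. The log2 levels of the 2 libraries of a group differed with an SD of 0.866 in the KPP controls and 0.813 in the KPP tumours, against 0.573 in both LLC groups. Without KPP control replicate 1, 178 genes were called in the difference (1.11%), and 177 of them were among the 1331. All 1331 genes kept their sign without it. Leaving out other single libraries gave 188 genes without LLC control replicate 1, 247 without LLC tumour replicate 2, 488 without LLC control replicate 2, 569 without LLC tumour replicate 1, and 1097, 1405 and 1631 without KPP tumour replicate 1, KPP tumour replicate 2 and KPP control replicate 2. A fit with a library left out has 1 library in that group, which is assumed to vary like the others. In 126 genes the difference was called in all 8 of these fits.

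In the LLC model 2191 genes changed (13.6%), 1189 up (7.39%) and 1002 down (6.23%), and in the KPP model 5912 changed (36.7%), 2805 up (17.4%) and 3107 down (19.3%). Counts of list members in the full fit below are to be read beside these shares of all genes. All counts of the full fit share 1 estimate of spread over all 18 libraries. Fitted to its own 4 libraries alone, the LLC experiment gave 3852 genes and the KPP experiment 2916, and the authors' deposited tables listed 3165 and 3164 genes. So the counts do not rank the 2 models. The SD of the log2 fold changes over genes was 1.04 in LLC and 1.505 in KPP. This SD includes the spread between replicates, which was larger in the KPP groups (0.866 and 0.813) than in the LLC groups (0.573 in both). The part of that spread in it was not tested. Leaving out 1 LLC library moved the LLC count to 498, 587, 929 and 1208 (LLC control replicate 1, LLC tumour replicate 2, LLC control replicate 2 and LLC tumour replicate 1). Leaving out KPP control replicate 1 moved the KPP count to 3240 (20.1%).

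**Figure D1:**
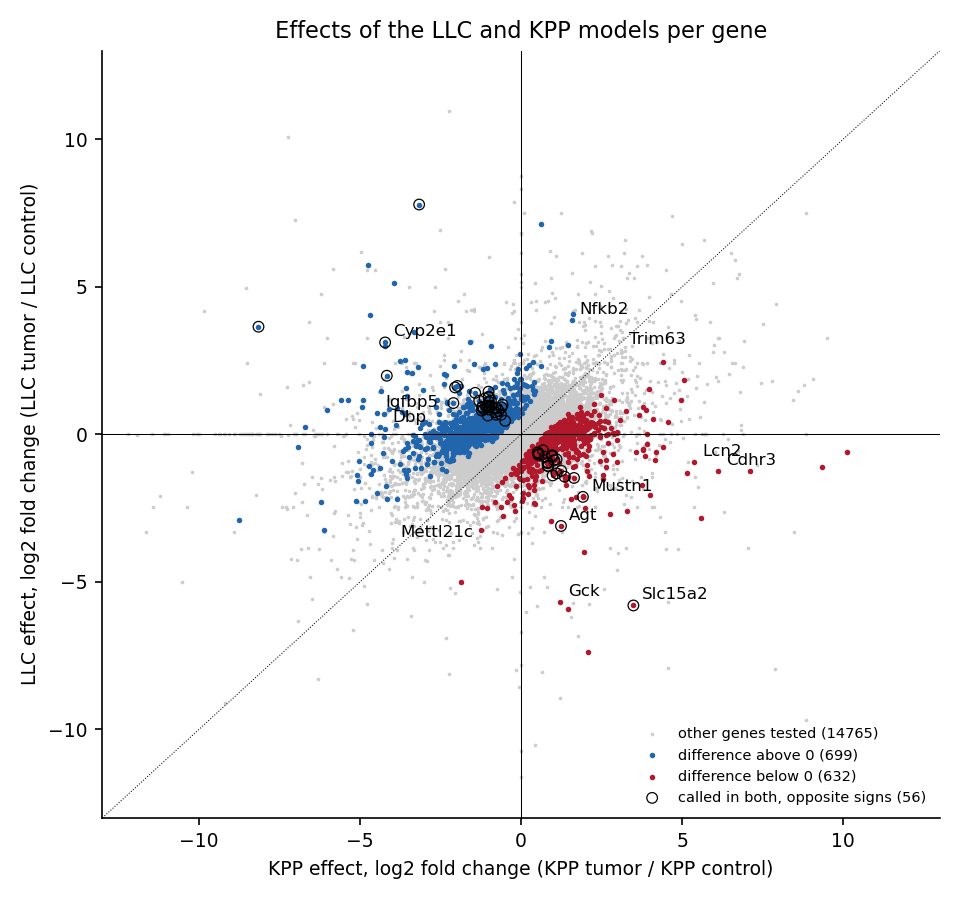
Each point is 1 of 16096 genes, with its KPP effect (log2 fold change, horizontal) and its LLC effect (log2 fold change, vertical). Blue and red mark the 699 and 632 genes called in the difference, circles the 56 genes that changed in both models in opposite directions, and the dotted line equal effects.

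Most divergent genes were ones called in the KPP muscles. Of the 1331, 983 were called in KPP and not in LLC, 190 in LLC and not in KPP, 109 in both and 49 in neither. These calls use the 1 estimate of spread over all libraries, although the KPP replicates differed more. The split was not computed from the fits to each experiment alone, so it does not rank the models. The KPP effect was the larger of the 2 in absolute size in 1039 genes and the LLC effect in 292. By direction, 699 genes had a higher LLC effect (4.34%) and 632 a lower one (3.93%). The 1331 genes reached the list mostly through the tumour-bearing muscles: the LLC and KPP tumour groups differed in 1229 of them and in 24.4% of all 16096 genes, the control groups in 6 of them and in 0.137% of all 16096, and the difference between controls was the larger one in 93. The last gene called was Pfkfb1, a regulator of glycolysis, with a difference of -0.98, and the first not called was Rpl26, a ribosomal protein gene, with -1.09. Across all genes the 2 effects correlated with Pearson r = 0.335, and with 0.367 without KPP control replicate 1. Genes are not independent replicates, and no p is given.

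The genes of cytosolic ribosomal proteins, the structural proteins of the ribosome, rose as a block in KPP and not in LLC. Of 78 measured, 77 rose in KPP and 74 were called lower in the difference. In LLC 2 rose and 1 fell. The median effect was 1.41 in KPP and 0.07 in LLC, where the medians over all tested genes were -0.04 and -0.00. Their summed level was 19385 and 17464 CPM in the LLC controls and 19154 and 17931 in the LLC tumours. It was 15568 and 20282 in the KPP controls and 46510 and 46893 in the KPP tumours. The KPP tumour libraries lay above the other 6, and those 6 overlapped across groups. The KPP rise was called for 76 or 77 genes in each of the 4 fits that left out a KPP library, with a median of 1.24 without KPP control replicate 1. The count in the difference was less stable, at 5 without KPP control replicate 1, 10 without LLC control replicate 1, 14 without LLC tumour replicate 2, 45 without LLC tumour replicate 1 and 61 or more without each of the other 4. Fitted alone, the experiments gave 77 of 78 rising in KPP and 4 in LLC, and the authors' deposited tables listed 77 as higher in KPP and 5 in LLC.

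The mRNAs of ribosomal proteins are known for a run of pyrimidines at their very start, the terminal oligopyrimidine tract, through which their translation is controlled. Sequences at RefSeq start sites (build GRCm38.p6, the outermost start of each gene) were available for 57 of the 78 genes. They are shown here for 6 genes that mark the range of the block. Rps27 had the largest KPP effect, Rpl10a, Rps28 and Rps19 were among the 4 members of smallest p in the difference, Rpl9 had the smallest of the called rises, and Rpl3l was the member that did not rise. Rps27, Rpl9, Rpl3l and its paralog Rpl3 were singled out after their values were seen. Each line runs 5′ to 3′ on the strand of the gene, from 10 bases before the annotated start to 20 bases from it onwards, and capitals mark a C followed by 5 or more bases that are C or T.
Rps27: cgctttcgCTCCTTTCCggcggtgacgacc
Rpl10a: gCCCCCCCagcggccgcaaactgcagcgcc
Rps28: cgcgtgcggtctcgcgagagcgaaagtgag
Rps19: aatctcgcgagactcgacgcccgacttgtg
Rpl9: gggccctgacggattacaagaacgtgatga
Rpl3l: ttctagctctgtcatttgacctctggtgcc

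These windows lie at chr3:90213629-90213658 on the minus strand (Rps27), chr17:28328461-28328490 on the plus strand (Rpl10a), chr17:33824543-33824572 on the minus strand (Rps28), chr7:24884582-24884611 on the plus strand (Rps19), chr5:65391412-65391441 on the minus strand (Rpl9) and chr17:24727816-24727845 on the plus strand (Rpl3l). Such a run of at least 6 pyrimidines, searched on the gene's strand only, was found in 31 of the 57 ribosomal protein genes (54.4%). It was found in 2541 of 11354 tested genes with a start sequence (22.4%), in 3 of 22 translation factors (13.6%) and in 9 of 41 nuclear genes of oxidative phosphorylation (22%). The KPP effect had a median of 1.47 (0.99 to 2.88) in the 31 ribosomal protein genes with the run and of 1.40 (-0.52 to 1.91) in the 26 without. Annotated starts can be some bases off, so a missing run says only that these letters are not in this window. Runs were counted anywhere in the 30 bases, and that of Rpl10a lies wholly before the annotated start. A run in the window is therefore not shown to be the tract at the start of the mRNA.

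Rps28 (small subunit, chr17:33819027-33824562) was at 131 and 110 CPM in the LLC controls, 133 and 128 in the LLC tumours, 99.7 and 132 in the KPP controls and 403 and 468 in the KPP tumours. Its LLC effect was 0.11 ± 0.20 and its KPP effect 1.91 ± 0.21. For these effects of Rps28 the authors' deposited tables had an SE of 0.17 in LLC and 0.29 in KPP. Rpl10a (large subunit) was at 144, 128, 169 and 179 CPM in the 4 LLC libraries, at 126 and 148 in the KPP controls and at 481 and 502 in the KPP tumours, with effects of 0.36 ± 0.17 and 1.84 ± 0.17. Rps19 was at 109 to 134 CPM in the LLC libraries, 112 and 128 in the KPP controls and 373 and 435 in the KPP tumours. In each of these genes the 2 KPP tumour libraries stood above the other 6. The 2 LLC tumours of Rpl10a lay above all 4 controls, although its LLC effect was not called. The differences of these 3 genes were called in all 8 fits that left out a library.

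The paralogs Rpl3 and Rpl3l behaved unlike the block. Rpl3l is a muscle-specific form of the large-subunit protein Rpl3. Rpl3 was at 54.8 and 42 CPM in the LLC controls and 129 and 143 in the LLC tumours, and at 73.6 and 70.5 in the KPP controls and 235 and 385 in the KPP tumours. It rose in both models, by 1.49 ± 0.28 in LLC and 2.11 ± 0.29 in KPP. Rpl3l was at 630 and 579 CPM in the LLC controls and 269 and 234 in the LLC tumours, a fall of -1.27 ± 0.24. In KPP it was at 466 and 585 in the controls and 421 and 312 in the tumours, with an effect of -0.52 ± 0.24 that did not pass the test (edgeR adjusted p = 0.10). Both differences between the models missed the threshold.

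Short transcripts as a class leaned the same way. Of 5 equal length classes of tested genes, ribosomal proteins left out, the shortest (median 675 bases) had a median effect of -0.17 in LLC and 0.20 in KPP, and the longest had 0.08 and -0.19. The ribosomal protein genes had a median length of 465 bases. Their median KPP effect of 1.41 exceeded that of the shortest class. The part of transcript length in the block was not tested. With length-scaled counts 77 of 78 still rose in KPP. Ribosomal protein genes have many processed pseudogenes, so the division of reads among near-identical copies adds uncertainty to single members.

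Other parts of the translation machinery were less split. Of 30 translation factors 20 rose in KPP (median 0.91), and 7 rose and 1 fell in LLC (median 0.42). In the difference 6 were called lower, and 0 without KPP control replicate 1. The LLC count of rises was 1, 2 and 4 without LLC control replicate 1, LLC tumour replicate 2 and LLC control replicate 2, and fitted alone both experiments had 14 rising. Eif4ebp1, an inhibitor of cap-dependent initiation, rose from 35.0 and 42.5 CPM to 100.2 and 126 in LLC (1.54 ± 0.33). In KPP it rose from 46.5 and 61.7 to 956 and 732 (3.96 ± 0.36). Its LLC call was lost without LLC control replicate 1 or LLC tumour replicate 2. Eif3e, an initiation factor subunit, was at 103 to 144 CPM in the 4 LLC libraries and went from 93.3 and 135 to 352 and 345 in KPP. The difference of Eif4ebp1 was lost without KPP control replicate 1, and that of Eif3e without it, either LLC control or LLC tumour replicate 2. Of 34 ribosome biogenesis genes, which build the subunits in the nucleolus, 23 rose in LLC (median 0.77) and 25 in KPP (median 0.89). The LLC count fell to 3, 5, 7 and 14 without LLC control replicate 1, LLC tumour replicate 2, LLC control replicate 2 and LLC tumour replicate 1, and the KPP count to 16 without KPP control replicate 1. Fitted alone, the LLC experiment had 29 rising and the KPP experiment 18. So the assembly factors rose in both muscles and the structural proteins in KPP.

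**Figure D2:**
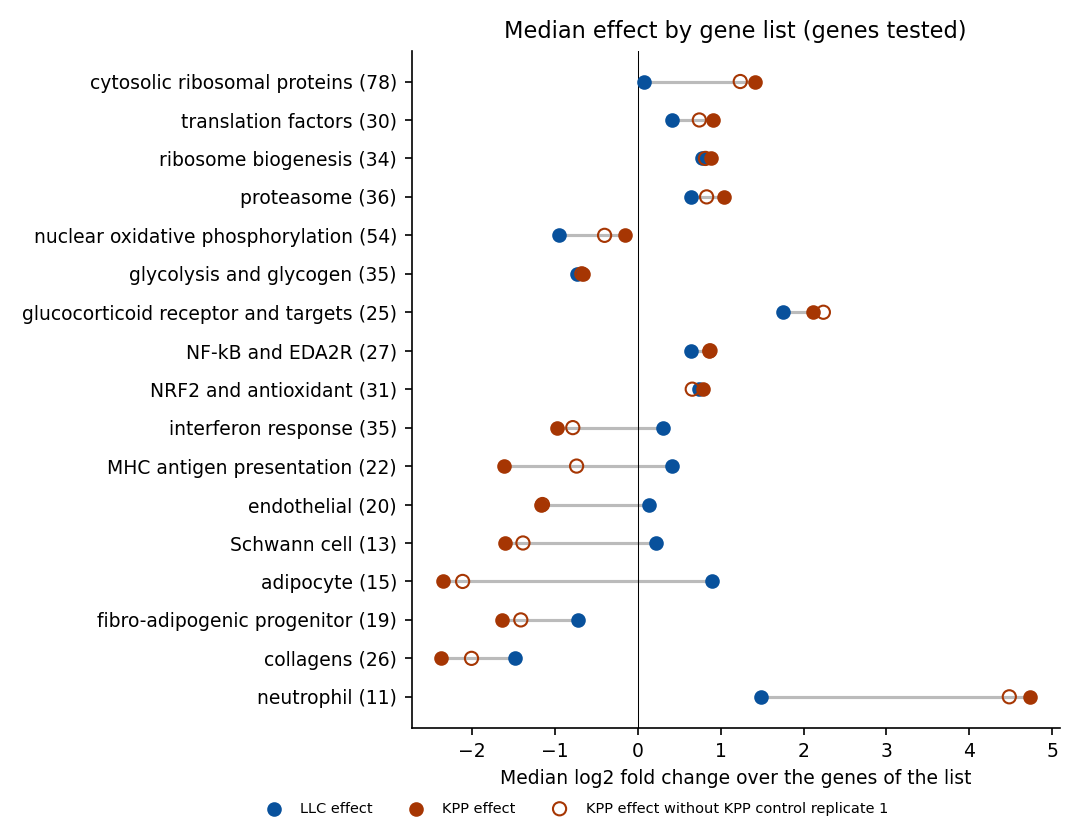
Median log2 fold change of each gene list (number of genes tested in brackets) in the LLC model (blue), the KPP model (brown) and the KPP model without KPP control replicate 1 (open circle). The medians of ribosomal proteins were 0.07 and 1.41, and those of adipocyte genes 0.89 and -2.35.

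Nuclear genes of oxidative phosphorylation, which encode the respiratory chain of mitochondria, fell in LLC and mostly not in KPP. Of 54 genes 42 fell in LLC (median -0.95), and 12 fell and 1 rose in KPP (median -0.16). Fitted alone, 52 fell in LLC and 2 in KPP. Their summed level was 34417 and 29181 CPM in the LLC controls and 17831 and 16900 in the LLC tumours, without overlap. It was 22927 and 31907 in the KPP controls and 26954 and 21872 in the KPP tumours, with overlap. Only 5 of the 54 were called in the difference, all lower. The LLC count was 7 without LLC control replicate 1 or LLC tumour replicate 2, 24 without LLC tumour replicate 1 and 31 without LLC control replicate 2, and the KPP count of falls was 3 without KPP control replicate 2 or KPP tumour replicate 2. Without KPP control replicate 1 the KPP median was -0.40, and the 5 calls in the difference were lost. The median difference was then -0.48, against -0.73 in the full fit. It was below 0 in 49 of the 54 genes without that library and in 52 in the full fit.

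Atp5g1, a subunit of the ATP synthase ring, went from 906 and 813 CPM to 407 and 357 in LLC (-1.17 ± 0.22, a call lost without LLC tumour replicate 2) and from 604 and 802 to 756 and 639 in KPP (-0.01 ± 0.22). Cox6a2, the muscle form of a cytochrome c oxidase subunit, was the gene that rose in KPP, from 562 and 769 CPM to 1264 and 1236 (0.91 ± 0.19). In LLC it went from 723 and 638 to 459 and 466 without passing the test (-0.56 ± 0.19, edgeR adjusted p = 0.070). The difference of Cox6a2 was lost without KPP control replicate 1, and that of Atp5g1 in 6 of the 8 fits, those without KPP control replicate 1, KPP tumour replicate 1 or any 1 LLC library. The 15 mitochondrially encoded genes passed the test in neither model, with medians of -0.77 in LLC and -0.84 in KPP. At an unadjusted p below 0.05 edgeR's quasi-likelihood test gave 6 and 9 lower, DESeq2 gave 4 and 5 after adjustment, and fitted alone 11 of the 15 fell in LLC and 0 in KPP. Of 28 genes of pyruvate oxidation and the citric acid cycle, 14 fell in LLC, and in KPP 10 fell and 2 rose. Of 35 genes of glycolysis and glycogen 15 fell and 1 rose in LLC, and 16 fell and 2 rose in KPP, with medians of -0.73 and -0.66. Without LLC control replicate 1 or LLC tumour replicate 2 the LLC falls of the citric acid cycle list numbered 2, without LLC tumour replicate 1 they numbered 5 and without LLC control replicate 2 they numbered 9. Its KPP falls numbered 4 and 3 without KPP control replicate 2 and KPP tumour replicate 2, and the LLC falls of glycolysis 9 without LLC control replicate 1.

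Genes of MHC antigen presentation, which display peptides on the cell surface, leaned up in LLC and down in KPP, but this rested on KPP control replicate 1. Of 22 genes 5 rose and 1 fell in LLC (median 0.42), 16 fell in KPP (median -1.62) and 11 were called higher in the difference. Their summed level was 379 and 339 CPM in the LLC controls, 559 and 632 in the LLC tumours, 801 and 426 in the KPP controls and 377 and 328 in the KPP tumours. The high value was that of KPP control replicate 1. Without it 0 of the 22 fell in KPP (median -0.74) and 1 was called in the difference, and without KPP tumour replicate 2 the number that fell was 4. The difference held 17 genes without KPP control replicate 2, 6 without KPP tumour replicate 2, 1 without LLC control replicate 1 or LLC tumour replicate 2 and 4 and 7 without the other LLC control and tumour library. No LLC rise was called without LLC control replicate 1, LLC control replicate 2 or LLC tumour replicate 2, and fitted alone 10 of the 22 rose in LLC. H2-Q7, a class I heavy chain, was at 10.8 and 9.81 CPM in the LLC controls and 31.8 and 30.2 in the LLC tumours. In KPP it was at 30.2 and 7.59 in the controls and 6.61 and 2.67 in the tumours. Its LLC call (1.59 ± 0.49) was lost without any 1 LLC library and its KPP call (-2.05 ± 0.51) without KPP control replicate 1 or KPP tumour replicate 2. Of 35 interferon response genes 20 fell and 1 rose in KPP, which became 6 and 1 without KPP control replicate 1 and 12 and 1 without KPP tumour replicate 1, and 1 rose and 1 fell in LLC. The H2-Q genes are near-identical copies, so the split among them is uncertain.

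Endothelial marker genes were lower in the KPP tumour muscles and not in the LLC ones. Of 20 tested 14 fell in KPP (median -1.17), 1 rose in LLC (median 0.14) and 8 were called higher in the difference. Without KPP control replicate 1 the numbers were 10 in KPP (median -1.15) and 3 in the difference, and the difference held 2 genes without LLC control replicate 1 or LLC tumour replicate 2 and 4 without LLC control replicate 2. Fitted alone, 9 fell in KPP, and 1 rose and 3 fell in LLC. The summed level was 772 and 804 CPM in the LLC controls, 773 and 960 in the LLC tumours, 1113 and 1175 in the KPP controls and 633 and 463 in the KPP tumours. The LLC groups did not separate clearly, whereas both KPP tumour libraries lay under all other 6. In bulk muscle, fewer cells of a type and less RNA per cell cannot be told apart.

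The falls included both surface receptors and transcription factors of blood vessels. Sox7, a SoxF transcription factor, was at 3.06, 3.61, 2.98 and 4.76 CPM in the 4 LLC libraries, at 5.2 and 6.29 in the KPP controls and at 0.661 and 0.636 in the KPP tumours (-3.14 ± 0.29). Eng, a co-receptor of the TGF-beta family on vessels, went from 31.6 and 25.5 to 6.15 and 7.72 CPM in KPP (-2.04 ± 0.29) and was at 18 to 31.0 in LLC. The water channel Aqp1 went from 426 and 429 to 192 and 136 CPM in KPP (-1.38 ± 0.22) and from 250.1 and 256 to 277 and 352 in LLC (0.31 ± 0.22). Vwf, the clotting factor stored in endothelial cells, was the member that rose in LLC, from 8.79 and 9.81 to 16.6 and 24.3 CPM (1.14 ± 0.35), and it fell in KPP, from 10.6 and 9.84 to 5.12 and 3.24 (-1.30 ± 0.37). Sox7 and Eng were called in the difference in all 8 fits, Aqp1 not without LLC control replicate 1 or LLC tumour replicate 2, and Vwf not in 4 of the 8, among them that without KPP control replicate 1. The rise of Vwf in LLC was lost without any 1 of the 4 LLC libraries or either KPP control library (largest edgeR adjusted p = 0.32), and its fall in KPP without KPP control replicate 1 or KPP tumour replicate 2.

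Schwann cell genes, from the glia that wrap motor axons, followed the same direction. Of 13 tested 6 fell in KPP (median -1.60), 1 rose in LLC (median 0.22) and 4 were called in the difference. Ngfr, the neurotrophin receptor that Schwann cells raise after nerve injury, was the gene that rose in LLC, from 0.679 and 1.47 to 2.98 and 8.43 CPM (2.40 ± 0.53). The difference held 0 genes without KPP tumour replicate 2 or LLC tumour replicate 2, 1 without KPP control replicate 1 or LLC control replicate 2 and 2 without LLC control replicate 1. Without LLC control replicate 1 or LLC tumour replicate 2 the rise in LLC was not called.

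Adipocyte genes fell in KPP and mostly were not called in LLC, and their control levels differed between the models. Of 15 tested 11 fell and 1 rose in KPP (median -2.35). In LLC 1 rose (median 0.89), and 6 rose and 2 fell in the fit to the LLC libraries alone. Of the 15, 8 were called higher and 1 lower in the difference. The gene called in LLC was Cidec, a lipid droplet protein, which was listed at 0 in both LLC controls and at 0.756 and 1.19 CPM in the LLC tumours. The summed level of the list was 2931 and 2628 CPM in the LLC controls and 2074 and 2355 in the LLC tumours, and 1775 and 2170 in the KPP controls and 460.1 and 801 in the KPP tumours. Both models' tumour libraries thus had the lower sums, against a positive median in LLC. Car3, a carbonic anhydrase that muscle fibres also make, was most of the sum in the LLC libraries, at 2714, 2388, 1829 and 2101 CPM. Car3 was singled out after its values were seen. Adipoq, the fat hormone adiponectin, was at 0.425 and 0.0751 CPM in the LLC controls and 1.15 and 1.63 in the LLC tumours, but at 8.14 and 6.89 in the KPP controls and 0.578 and 0.636 in the KPP tumours. So the KPP tumour muscles lay at the level of the LLC muscles and the KPP controls above them. Cfd, the complement factor adipsin that fat secretes, had the same pattern, with 2.08 and 1.35 against 7.36 and 12 CPM in LLC and 65.8 and 20.7 against 5.33 and 1.21 in KPP. The KPP effects of Adipoq and Cfd passed the test (-3.62 ± 0.71 and -3.76 ± 0.82), and the LLC effects of 2.50 ± 0.82 and 2.50 ± 0.83 did not (edgeR adjusted p = 0.058 and 0.063). Over the list, the controls of LLC were lower than those of KPP by a median of -2.63, and 2 genes were called in that comparison. The KPP count was 7 without KPP control replicate 1, KPP tumour replicate 1 or KPP tumour replicate 2. The count of higher genes in the difference was 3 without LLC control replicate 1 or LLC tumour replicate 2, 4 without KPP control replicate 1 or LLC control replicate 2, and 5 without KPP tumour replicate 1. In the authors' deposited tables the LLC effects were 2.67 (Adipoq, adjusted p = 0.018) and 2.49 (Cfd, adjusted p = 5.06e-09). How much fat adhered to each dissected muscle is not recorded, and its part in these genes was not tested.

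**Figure D3:**
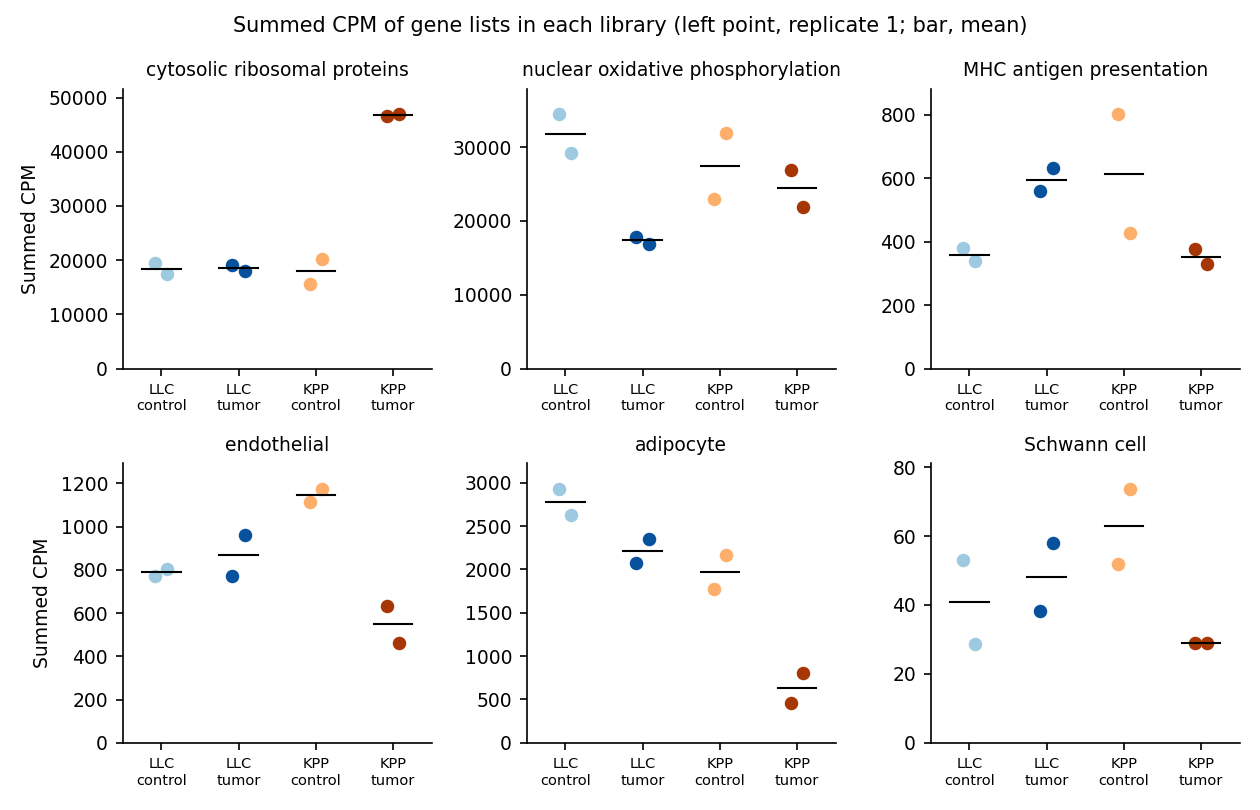
Summed CPM of 6 gene lists in each of the 8 libraries, with replicate 1 as the left point and the group mean as a bar. The KPP tumour libraries are the highest for ribosomal proteins (46510 and 46893) and the lowest for adipocyte genes (460.1 and 801).

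Collagen genes fell in both models. Of 26 collagen genes 22 fell in KPP (median -2.37) and 12 in LLC (median -1.48), and 2 were called higher and 1 lower in the difference, where 4.34% and 3.93% of all genes were. The summed level was 526 and 558 CPM in the LLC controls, 153 and 205 in the LLC tumours, 1007 and 482 in the KPP controls and 85.3 and 121 in the KPP tumours, with KPP control replicate 1 the highest. Without it 17 fell in KPP (median -2.01) and none of the 26 was called in the difference. Of 12 tendon markers 8 fell and 1 rose in KPP, and 3 fell and 1 rose in LLC. The KPP falls numbered 4 without KPP control replicate 1 and 5 without either KPP tumour library, and the LLC falls 0 without LLC tumour replicate 2, 1 without LLC control replicate 2 or LLC tumour replicate 1 and 2 without LLC control replicate 1. Their sum was 67.4 and 96.6 CPM in the LLC controls, 42.0 and 53.1 in the LLC tumours, 420 and 196 in the KPP controls and 60.5 and 76.5 in the KPP tumours, and the LLC controls were lower than those of KPP by a median of -2.87. The part of adhering tendon in the collagen genes was not tested. The LLC count of collagens was 2 or 3 without any 1 of the 4 LLC libraries. Col3a1 went from 129 and 113 CPM to 15.8 and 13.3 in LLC (-3.05 ± 0.54, a call lost without LLC tumour replicate 2) and from 197 and 86.3 to 4.50 and 2.73 in KPP (-5.30 ± 0.61). Col9a1 was an exception with the larger fall in LLC, from 4.50 and 5.64 to 0.159 and 0.149 CPM (-5.00 ± 0.50), against 2.16 and 1.60 to 0.372 and 0.636 in KPP (-1.87 ± 0.42). Markers of fibro-adipogenic progenitors, the mesenchymal cells that make muscle matrix, fell for 13 of 19 in KPP (median -1.64) and 4 of 19 in LLC (median -0.73), and the latter count was 1 without LLC control replicate 1, LLC control replicate 2 or LLC tumour replicate 2. Of 20 macrophage markers 2 rose and 1 fell in KPP, where 17.4% and 19.3% of all genes did. In LLC edgeR's quasi-likelihood test called 0 of the 20, with 1 at an unadjusted p below 0.05, and DESeq2 also called 0. Their summed level was 51.6 to 68.8 CPM in the 4 LLC libraries.

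Markers of 2 blood cell types had positive medians in both models. The erythroid median was the larger in LLC (2.57, against 0.91 in KPP) and the neutrophil median in KPP (4.73, against 1.49 in LLC). Of 11 erythroid genes 6 rose and 1 fell in LLC (median 2.57), a count of 0 rises without LLC control replicate 1 or LLC tumour replicate 2 and of 1 without LLC control replicate 2. In KPP 0 rose in the full fit and 5 without KPP tumour replicate 2. The summed level was 648 and 552 CPM in the LLC controls, 1067 and 2805 in the LLC tumours, 635 and 1157 in the KPP controls and 3386 and 647 in the KPP tumours, so the replicates differed more than the models. Of 11 neutrophil genes 6 rose in KPP (median 4.73) and 2 in LLC (median 1.49). Their summed level was 5.77 and 2.18 CPM in the LLC controls, 9.51 and 8.17 in the LLC tumours, 5.94 and 4.74 in the KPP controls and 41.5 and 121 in the KPP tumours. Of this sum in the KPP tumours, 19.9 and 56.0 CPM were Lcn2, described below. Members of the list differed in detection: Mpo was at 0 in all 8 libraries and Elane in 7, while S100a8 and S100a9 were at 0 in none.

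A set of stress and signalling genes rose more in LLC than in KPP. Nfkb2 and Relb, which encode the p100/p52 and RelB subunits of the non-canonical NF-kB pathway, led it. Nfkb2 (chr19:46304320-46312385) went from 5.09 and 6.24 CPM to 63.4 and 101 in LLC (3.86 ± 0.29) and from 8.91 and 8.74 to 22.4 and 29.8 in KPP (1.57 ± 0.27). Relb went from 4.71 and 6.61 to 42.0 and 45.6 CPM in LLC (2.95 ± 0.29) and from 8.17 and 7.99 to 18 and 11.3 in KPP (0.85 ± 0.27). Both genes rose in both models, and the LLC tumour libraries lay above the KPP tumour libraries. The small KPP rise of Relb was not called without KPP control replicate 1, KPP control replicate 2 or KPP tumour replicate 1. Eda2r, the receptor whose activation of this pathway in muscle has been tied to atrophy, rose in both, by 3.42 ± 0.39 in LLC and 2.47 ± 0.38 in KPP. Of 27 genes of this list 11 rose in LLC, 12 rose and 1 fell in KPP, and 3 were called higher in the difference, so the divergence lay in few members. The LLC count was 6 without LLC control replicate 1, LLC control replicate 2 or LLC tumour replicate 2, and the KPP count of rises was 7 and 5 without KPP control replicate 1 and KPP control replicate 2.

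Srxn1, the sulfiredoxin that repairs peroxiredoxins and a target of NRF2, went from 19.8 and 25.2 CPM to 123 and 102 in LLC (2.32 ± 0.21) and from 28.2 and 26.9 to 36.5 and 48.2 in KPP (0.62 ± 0.20). The latter call was lost without KPP control replicate 1, KPP control replicate 2 or KPP tumour replicate 2. Osgin1 and Txnrd1, also known NRF2 targets, rose in LLC (1.89 ± 0.34 and 1.19 ± 0.20) and had KPP effects of -0.01 ± 0.33 and 0.10 ± 0.20. Over the 31 genes of the NRF2 and antioxidant list, 14 rose and 2 fell in LLC, and 15 rose and 3 fell in KPP. The LLC count of rises was 7 without LLC control replicate 1 and 9 without LLC control replicate 2 or LLC tumour replicate 2, and the KPP count was 7 without KPP control replicate 1. Fitted alone, the counts were 19 and 8. The LLC call of Osgin1 was lost without LLC control replicate 1. Jun, a subunit of the AP-1 transcription factor, went from 62.2 and 69.9 CPM to 189 and 300.4 in LLC (1.89 ± 0.22) and stayed between 61.1 and 76.8 in the 4 KPP libraries (-0.04 ± 0.22). Odc1, the first enzyme of polyamine synthesis, went from 115 and 150.4 to 507 and 378 CPM in LLC (1.74 ± 0.23) and was at 203, 174, 151 and 197 in the KPP libraries (-0.11 ± 0.22). The other polyamine genes differed through KPP. Sms, spermine synthase, fell there by -1.15 ± 0.21, and Sat1 and Paox, which break polyamines down, rose by 1.55 ± 0.19 and 2.64 ± 0.40. In LLC their effects were 0.48 ± 0.21, 0.26 ± 0.19 and -0.02 ± 0.39, and none passed the test. Gadd45a, a stress gene known to drive fibre atrophy, rose in both, from 24.3 and 16.0 to 263 and 409 CPM in LLC (4.06 ± 0.37) and from 23.7 and 33.9 to 109.6 and 64.9 in KPP (1.60 ± 0.34). The differences of Nfkb2, Srxn1, Jun and Odc1 were called in all 8 fits that left out a library. Those of Relb and Sms were lost without LLC control replicate 1, that of Gadd45a without LLC control replicate 2 or LLC tumour replicate 2, those of Osgin1 and Txnrd1 in 5 and 6 of the 8, and those of Sat1 and Paox in 3 and 4, each time among them the fit without KPP control replicate 1.

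Other genes changed strongly in KPP and were not called in LLC. Dbp, Igfbp5, Lcn2, Cdhr3, Fxyd7, Pnmt and Mylk4 were picked among the largest differences. That rule required both KPP tumour libraries to lie on the same side of both KPP controls. Dbp and Hlf encode PAR bZIP transcription factors, outputs of the circadian clock. Dbp (chr7:45705088-45710203) was at 114 and 102 CPM in the LLC controls, 140.3 and 106 in the LLC tumours and 126 and 123 in the KPP controls, and at 9.33 and 3.94 in the KPP tumours (-4.24 ± 0.35). Hlf was at 8.87 to 11.2 CPM in the LLC libraries and went from 15.0 and 12.2 to 3.34 and 4.48 in KPP (-1.79 ± 0.21). The hour of dissection is not given, and its part in these clock outputs was not tested. Igfbp5, a binding protein of insulin-like growth factors, was at 256 and 299 CPM in the LLC controls and 464 and 454 in the LLC tumours (0.73 ± 0.44, not called). The authors' deposited table had 0.72 with an adjusted p of 4.64e-05 for this LLC effect. In KPP it went from 192 and 123 to 7.93 and 6.33 (-4.47 ± 0.51). The difference was called in all 8 fits for these 3 genes, in which the 2 KPP tumour libraries lay far under the other 6.

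Lcn2, the iron-binding acute-phase protein lipocalin 2, was at 0.564 to 2.12 CPM in the LLC libraries and went from 0.672 and 1.20 to 19.9 and 56.0 in KPP (5.38 ± 0.73). Its LLC effect was -0.93 ± 0.81. Mt1, a metallothionein that binds zinc, went from 9.51 and 6.54 to 14.8 and 43.0 CPM in LLC (1.85 ± 0.64, edgeR adjusted p = 0.072) and from 15.4 and 20.8 to 342 and 877 in KPP (5.07 ± 0.72). Cebpd, a C/EBP factor that drives acute-phase genes, rose in both, by 2.46 ± 0.40 in LLC and 4.42 ± 0.43 in KPP, to 40.4 and 76.0 CPM and to 509.9 and 367. Cdhr3, a cadherin-related protein, was at 0.186 to 1.13 CPM in LLC and went from 0.106 and 0.300 to 6.32 and 20.6 in KPP (6.11 ± 0.78). Fxyd7, a modulator of the sodium pump, was at 0.297 to 0.637 CPM in LLC and went from 0.460 and 0.549 to 6.11 and 7.72 in KPP (3.78 ± 0.41). Pnmt, which makes adrenaline from noradrenaline, was at 0.929 to 1.74 CPM in LLC and went from 0.566 and 1.15 to 19.6 and 16.0 in KPP (4.41 ± 0.83). The KPP changes of these 6 genes were called in every fit that left out a library. The difference was called in all 8 fits for Cdhr3 and Fxyd7 and was lost for Lcn2 without LLC control replicate 1. For Mt1, Cebpd and Pnmt it was lost in 5 or more of the 8, among them the fits without KPP control replicate 1 and without each LLC library (largest edgeR adjusted p for Pnmt 0.12).

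Myh1, the myosin heavy chain of fast IIx fibres, rose in KPP. It was at 8310 to 12031 CPM in the LLC libraries and at 8768 and 9204 in the KPP controls, and at 27546 and 40836 in the KPP tumours (1.93 ± 0.33). Myh4, the chain of IIb fibres, passed the test in neither model (0.34 ± 0.42 and -0.62 ± 0.42). These genes lie in a cluster of near-identical copies, so the division of reads between them is uncertain. Mylk4, a kinase of the myosin light chain kinase family, was at 572 to 901 CPM in the LLC libraries and 542 and 588 in the KPP controls, and at 49.1 and 5.91 in the KPP tumours (-4.37 ± 0.86). The difference of Myh1 was not called without KPP control replicate 1, LLC control replicate 1 or LLC tumour replicate 1, and that of Mylk4 not without KPP control replicate 1 or any 1 LLC library, while both KPP changes were called in all 8 fits.

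**Figure D4:**
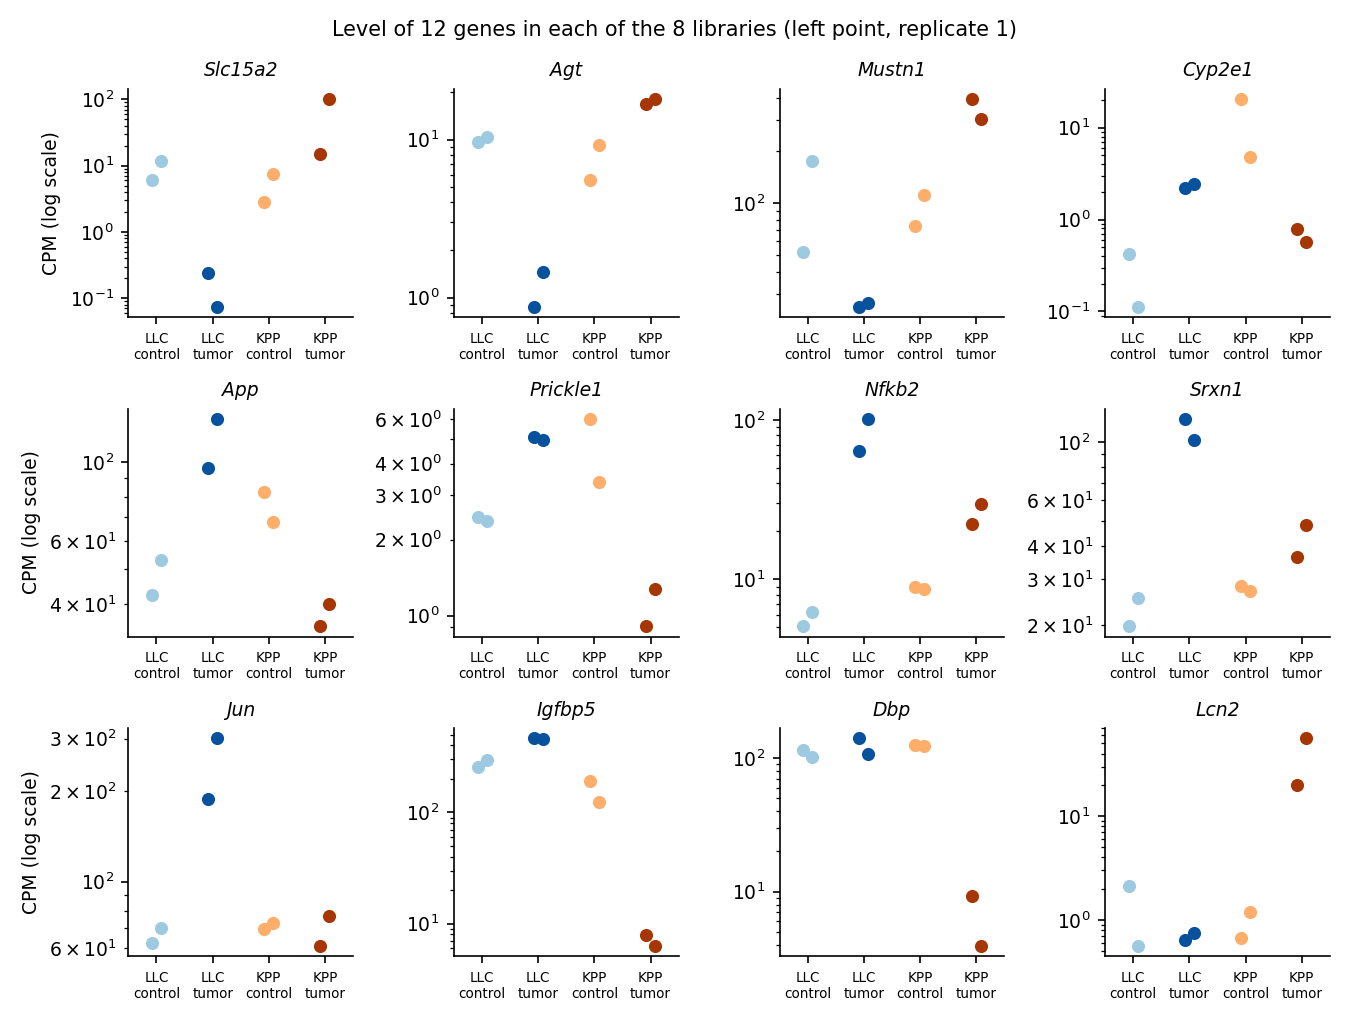
CPM of 12 genes on a log axis in each of the 8 libraries, replicate 1 as the left point. Slc15a2, Agt and Mustn1 are lowest in the LLC tumours and highest in the KPP tumours, whereas Nfkb2, Srxn1 and Jun are highest in the LLC tumours.

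In 56 genes the LLC and KPP effects both passed the test and had opposite signs, 35 higher in LLC and lower in KPP and 21 the other way. All 56 were among the 1331. The number was 26 without KPP control replicate 1 and 7 to 23 without any 1 of the LLC libraries. Against it, 1270 genes changed in both models in the same direction, 705 up and 565 down, which is 58.0% of the genes that changed in LLC and 21.5% of those that changed in KPP. The authors' deposited tables, joined over 24551 genes, held 80 opposite and 1244 same-sign genes at an adjusted p below 0.05.

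Slc15a2, a transporter of di- and tripeptides (chr16:36750177-36784962), had the largest difference of the genes that fell in LLC and rose in KPP. It was at 6.07 and 11.6 CPM in the LLC controls and 0.239 and 0.0743 in the LLC tumours (-5.80 ± 1.45), and at 2.83 and 7.54 in the KPP controls and 14.7 and 100.1 in the KPP tumours (3.49 ± 1.04). Its KPP replicates were far apart. The KPP call was lost without KPP control replicate 1 or KPP tumour replicate 2 (largest edgeR adjusted p = 0.25), and the LLC call without any 1 LLC library. Agt, angiotensinogen, was steadier, with 9.72 and 10.4 CPM in the LLC controls, 0.875 and 1.45 in the LLC tumours, 5.55 and 9.29 in the KPP controls and 16.9 and 18 in the KPP tumours. Its effects were -3.11 ± 0.33 in LLC and 1.24 ± 0.29 in KPP, and the latter lost its call without KPP control replicate 1 (edgeR adjusted p = 0.069). Mustn1, a small nuclear protein of muscle and cartilage, went from 52.3 and 174 to 25.3 and 26.7 CPM in LLC (-2.12 ± 0.45) and from 73.7 and 111 to 394 and 305 in KPP (1.92 ± 0.44). Mgst3, a glutathione transferase of membranes, went from 199 and 196 to 86.4 and 81.0 CPM in LLC (-1.24 ± 0.24) and from 154 and 210 to 498 and 365 in KPP (1.25 ± 0.24). In each of these 4 genes the LLC tumours lay under all other libraries and the KPP tumours above all, except that KPP tumour replicate 1 of Slc15a2 lay only just above LLC control replicate 2. For Slc15a2 and Agt, the separation of the LLC tumours from the LLC controls was part of the rule that picked them. The LLC call of Mustn1 was lost without LLC control replicate 2 or either LLC tumour library (largest edgeR adjusted p = 0.12) and its KPP call without KPP control replicate 1, and that of Mgst3 in LLC without LLC tumour replicate 2 (edgeR adjusted p = 0.060).

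Car14, a membrane carbonic anhydrase, and Napepld, which makes N-acylethanolamines, had the same direction. Their effects were -1.48 ± 0.35 and -0.88 ± 0.18 in LLC and 1.64 ± 0.35 and 1.03 ± 0.18 in KPP. Snai3, a Snail-family repressor, and Myo5c, an unconventional myosin, had effects of -1.32 ± 0.38 and -1.39 ± 0.33 in LLC and 1.10 ± 0.36 and 0.98 ± 0.33 in KPP. The LLC calls of these 4 genes were lost without LLC tumour replicate 2 and some other LLC libraries. The KPP calls of Snai3 and Myo5c were lost without KPP control replicate 1 and 1 or 2 other KPP libraries.

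In the other direction Cyp2e1 had the largest difference of the genes picked by size. Those genes reached 5 CPM in a group, predicted genes left out. Their tumour libraries both lay on 1 side of both controls in the model with the larger effect. Cyp2e1 encodes a cytochrome P450 of liver and fat that oxidises ethanol and fatty acids. It was at 0.425 and 0.113 CPM in the LLC controls and 2.19 and 2.42 in the LLC tumours (3.11 ± 0.75). In KPP it was at 20.3 and 4.84 in the controls and 0.784 and 0.575 in the tumours (-4.22 ± 0.66). The LLC call was lost without LLC control replicate 1, LLC control replicate 2 or LLC tumour replicate 2 (largest edgeR adjusted p = 0.13). Cyp2e1 moved with the adipocyte genes Adipoq and Cfd given above, and their part in it was not tested. App, the amyloid precursor protein, was the most abundant of the 3 genes described in full here and kept both calls in all 8 fits. It went from 42.5 and 53.3 to 96.0 and 132 CPM in LLC (1.25 ± 0.21) and from 82.3 and 67.8 to 34.7 and 39.9 in KPP (-1.01 ± 0.21). Prickle1, a planar cell polarity protein, went from 2.46 and 2.37 to 5.09 and 4.98 CPM in LLC (1.06 ± 0.30) and from 6.01 and 3.40 to 0.908 and 1.27 in KPP (-2.10 ± 0.32), and its LLC call was lost without any 1 LLC library (largest edgeR adjusted p = 0.16). The LLC tumour libraries of Prickle1 lay between the 2 KPP controls, so its split shows only against each model's own controls, and those of App lay above all other 6.

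Hspb8, a small heat shock protein of chaperone-assisted autophagy at the Z-disc, rose from 233 and 245 to 564 and 491 CPM in LLC (1.14 ± 0.23) and fell from 257 and 324 to 138 and 165 in KPP (-0.94 ± 0.23). Those calls were lost without LLC control replicate 1 and KPP control replicate 2 respectively (edgeR adjusted p = 0.068 and 0.052). Rhobtb1, an atypical small GTPase, had effects of 1.44 ± 0.29 and -1.01 ± 0.29, and B3galnt2, which glycosylates dystroglycan, of 1.10 ± 0.27 and -1.0 ± 0.27. Cebpa, a transcription factor of fat and liver, had 1.41 ± 0.39 and -1.43 ± 0.38. The KPP effect of Cebpa was -0.42 without KPP control replicate 1 and was then not called. Those of Rhobtb1 and B3galnt2 were also not called then, at -0.94 and -0.90. The LLC calls of all 3 genes were lost without LLC control replicate 1, that of B3galnt2 also without LLC control replicate 2 or LLC tumour replicate 1, and that of Cebpa without any 1 LLC library.

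The best known atrophy genes were shared. Trim63 went from 195 and 223 CPM to 1286 and 1752 in LLC (2.86 ± 0.47) and from 212 and 413 to 2853 and 2500 in KPP (3.10 ± 0.47), a difference of -0.23 ± 0.62. Fbxo32 went from 194 and 266 to 1972 and 2013 CPM in LLC (3.12 ± 0.35) and from 262 and 412 to 1380 and 1100 in KPP (1.88 ± 0.33), a difference of 1.24 ± 0.45 that was not called. Ddit4, an inhibitor of mTORC1, rose by 3.83 ± 0.65 and 3.96 ± 0.63. Tmem252 rose by 3.94 ± 0.34 and 3.55 ± 0.31, and Runx1, a transcription factor of denervated muscle, by 3.47 ± 0.63 and 3.13 ± 0.62. Mettl21c, a lysine methyltransferase of muscle, went from 88.0 and 68.4 to 8.31 and 3.90 CPM in LLC and from 37.7 and 28.6 to 2.93 and 1.24 in KPP (-3.68 ± 0.58 and -4.02 ± 0.62). Gdap1, a mitochondrial protein, fell by -3.55 ± 0.53 and -3.97 ± 0.54, Rhbdl1, a rhomboid protease, by -3.20 ± 0.27 and -3.18 ± 0.28, and Cacna2d4, a calcium channel subunit, by -3.10 ± 0.43 and -3.31 ± 0.44. The differences of the last 7 genes were below 0.5 in size, which is how they were picked. The LLC call of Runx1 was lost without LLC control replicate 1 (edgeR adjusted p = 0.057), and the other calls of the genes above in this group held in every fit that left out a library. Of 25 glucocorticoid targets 16 rose in LLC (median 1.75) and 19 in KPP (median 2.11), while 4 of them, Lcn2, Cebpd, Mt1 and Pik3r1, were called lower in the difference, as were 3.93% of all genes. Of 36 proteasome genes 14 rose and 1 fell in LLC (median 0.64), and 28 rose and 2 fell in KPP (median 1.04). Among the glucocorticoid targets, most of those 4 calls in the difference were lost without KPP control replicate 1 or any 1 LLC library. Their median difference was -0.19 in the full fit and -0.26 without KPP control replicate 1. The count of rises among glucocorticoid targets in LLC was 8 without LLC control replicate 1 and 9 without LLC tumour replicate 2. The proteasome count of rises in LLC was 1, 4, 5 and 7 without LLC control replicate 1, LLC tumour replicate 2, LLC control replicate 2 and LLC tumour replicate 1, and in KPP it was 18 without KPP control replicate 1. Fitted alone the experiments had 23 proteasome genes rising in LLC and 20 in KPP.

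The other 3 models, whose group means are no part of the difference, showed where the divergent genes stood elsewhere. Their libraries share the filter and the estimate of spread. KPC and KPCML1 are tumour cell lines placed orthotopically in C57BL/6 mice and share 1 pair of Matrigel controls, and C26 is a colon carcinoma line injected subcutaneously in CD2F1 mice with PBS controls. Of the 699 genes with the higher LLC effect, 289 fell and 39 rose in KPC (13.7% and 15.3% of all genes did so). In KPCML1 86 fell and 25 rose (4.38% and 4.16%), and in C26 166 fell and 29 rose (9.8% and 11.5%). Their median effects were 0.30 in LLC, -1.49 in KPP, -0.62 in KPC, -0.14 in KPCML1 and -0.32 in C26. Of the 632 genes with the lower LLC effect, 268 rose and 14 fell in KPC, 93 rose and 18 fell in KPCML1, and 254 rose and 40 fell in C26. Their medians were -0.19 in LLC, 1.20 in KPP, 0.54 in KPC, 0.28 in KPCML1 and 0.50 in C26. So in all 3 models more of the divergent genes took the direction of KPP than the other. The genes were picked by the difference, and in 1039 of the 1331 the KPP effect was the larger. This count therefore does not show which model stands apart. Over all tested genes, KPCML1 and C26 differed from LLC in 29 and 75 genes and from KPP in 559 and 174. KPC differed from LLC in 297 and from KPP in 6.

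**Figure D5:**
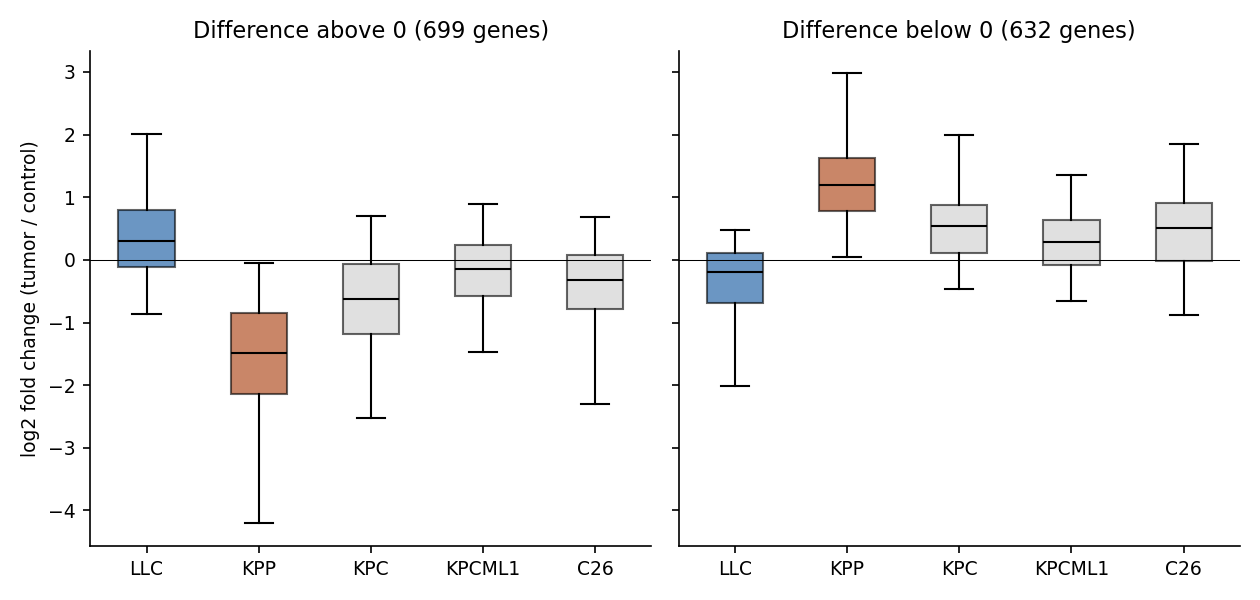
Log2 fold changes of the 699 genes with a difference above 0 (left) and the 632 below 0 (right) in the 5 models. Boxes show the quartiles, black lines the median and whiskers the 5th and 95th percentiles. The medians of KPC, KPCML1 and C26 (grey) have the sign of the KPP median in both panels.

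Single genes showed the same and some exceptions. Dbp fell in KPC, KPCML1 and C26 as in KPP, by -4.78, -2.86 and -3.47, and Igfbp5 by -3.25, -2.06 and -2.61, so LLC was the model without these falls. Lcn2 rose in all 3, by 5.62, 3.00 and 7.33. Rps28 rose in KPC and C26 (0.67 and 1.40) and had 0.68 in KPCML1. The summed level of ribosomal proteins was 26129 and 19823 CPM in the KPC tumours, 18759 and 24335 in the KPCML1 tumours and 22709 and 26669 in the C26 tumours, all below the KPP tumours. Their controls were at 13630 and 15517 (Matrigel) and 12669 and 14879 (C26). Of the 78 genes 63 rose in KPC (median 0.72), 18 in KPCML1 (0.59) and 71 in C26 (0.90, with 1 falling), so the rise of the block was not particular to KPP. Nfkb2 and Relb rose in C26 (2.82 and 1.76), as in LLC, and had effects of 0.15 and -0.17 in KPC and 0.16 and -0.15 in KPCML1 that were not called. Adipoq rose in KPC and KPCML1 (2.74 and 3.60), on the side of LLC, and fell in C26 (-2.60). Agt rose in KPC (1.61), and its effects in KPCML1 and C26 were 0.28 and 0.13, and its fall was called in LLC. Jun rose in C26 (0.85), and Srxn1 and Odc1 in KPC (0.78 and 0.70), each by less than in LLC. Whether these effects differ from those of LLC was not tested here.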

How the data were processed

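RNA from TA muscle, snap frozen and homogenised in Trizol, was sequenced as poly(A)-selected directional libraries on an Illumina sequencer, per the labels' protocols. Per the submitters' processing notes, bcl2fastq 2.20, FastQC, Salmon and DESeq2 were used with mm10. Neither the Salmon version, its strand setting nor the annotation was given in the sources used here. The authors deposited 1 Salmon table per library with estimated counts and TPM for 140825 transcripts. They also deposited tables of DESeq2 log2 fold changes and adjusted p-values per model, in which the LLC and KPP columns were used.

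For each gene the estimated counts of its transcripts were added up and rounded. Transcript names matched the gene annotation for 139958 transcripts, and the other 867 held 0.411% to 0.685% of fragments. TPM and effective length entered only the length-scaled alternative. All 18 libraries in 9 groups were fitted in edgeR 4.0.16 (R 4.3.3) with filterByExpr, TMM and the quasi-likelihood F test, and p-values were Benjamini-Hochberg adjusted over 16096 genes at 0.05. There were 9 residual degrees of freedom. In data simulated from these libraries, the difference was called for 7% of 100 genes changed 2-fold and 59% of 100 changed 4-fold, and 1 unchanged gene was called. Only these genes were changed, in the LLC tumour group alone, and every other gene had 1 mean over all groups. In the real data 1331 genes were called, and the adjusted threshold depends on that number. The simulated shares therefore need not hold there, but differences of moderate size can be missed. Precision depends on depth, 23320827 to 34573474 fragments in the 8 libraries.

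The pair of models, the gene lists and the rule for named genes were chosen with earlier results of these data known. Named genes were taken from those reaching 5 CPM in a group, leaving out predicted genes, pseudogenes and receptor segments. They were the 8 largest called differences in each direction and the 8 strongest opposite changes in each pattern. The 8 strongest like changes with a difference under 0.5 were taken too. For the largest differences, both tumour libraries had to lie on the same side of both controls in the model with the larger effect. In those genes that separation was therefore fixed by the selection. At any level, up to 4 members per list of smallest p for the difference and a panel of 20 genes were added. Alternatives were DESeq2 1.42.0, relative log expression in place of TMM, no filter, length-scaled counts, the 8 libraries only, a replicate block, leaving out each library and a 1.5-fold threshold. Fitting each experiment alone and a crossed block were added after seeing the data. Tables were made with Python 3.11.15 and pandas 2.3.3, and figures with matplotlib 3.10.9.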

Additional observations from a re-analysis of the deposited data

Results flagged for a closer look

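The difference between the LLC and KPP effects was called for 1331 genes in a test of the difference itself. It is listed because 2 models responded differently to the same kind of contrast, but the pair was chosen for having the highest such count of 10 pairs, so the count describes that choice. A further 56 genes changed in both models with opposite signs.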

How the results depend on the processing

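Size factors by relative log expression changed no count by more than 1.5 times. With DESeq2 the difference held 2153 genes, the control groups differed in 176 and 95 genes moved oppositely. Without a filter these were 2301, 761 and 133. Length-scaled counts gave 14 for the controls and 32 opposite genes. The 8 libraries alone gave 840 for the difference and 8 for the controls. The replicate block gave 501 for the difference, 1327 for LLC, 4 for the controls, 920 between the tumour groups, 35 opposite and 787 in the same direction. Nothing in the labels pairs the replicate numbers, and same-numbered libraries deviated with a correlation of 0.0095 in LLC and -0.172 in KPP. The crossed block in KPP, added after seeing the data, gave 39 for the controls and 1683 between the tumour groups. A 1.5-fold threshold gave 227 for the difference, 537 for LLC, 2956 for KPP, 12 for the controls, 1258 between the tumour groups, 6 opposite and 311 in the same direction. Each experiment fitted alone gave 3852 for LLC and 2916 for KPP. Leaving out 1 library gave 178 to 1631 for the difference, 498 to 2506 for LLC, 3240 to 5692 for KPP, 0 to 206 for the controls, 1864 to 3957 between the tumour groups, 7 to 73 opposite and 354 to 1203 in the same direction. Among named genes the KPP effects of Ppargc1a (1.93) and Socs3 (3.03) were -0.72 and -0.45 without KPP tumour replicate 2, and 2.81 and 3.96 without KPP tumour replicate 1. Those 2 rises rest on KPP tumour replicate 2. Over named genes and left-out libraries, the call of the difference was lost 474 times and held 646 times. Except where an alternative has fewer samples or more genes by construction, the cause was not tested. With 2 libraries per group, effects of moderate size can be missed, and the part of depth in this was not tested.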

Other observations

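Clock outputs did not move as 1 group. Tef, the third PAR bZIP factor beside Dbp and Hlf, was at 228, 212, 238 and 194 CPM in the KPP libraries (-0.03 ± 0.15) and rose in LLC from 217 and 232 to 379.6 and 404 (0.80 ± 0.15). Dbp and Hlf fell in KPP, where Tef was not called. The difference of Tef was lost in 6 of the 8 fits that left out a library, among them each without an LLC library. Of 20 clock genes 6 rose and 2 fell in LLC, where 7.39% and 6.23% of all genes did. In KPP 7 rose and 6 fell, where 17.4% and 19.3% of all genes did. The LLC rises numbered 0 without LLC control replicate 1 and 3 without each of the other LLC libraries, and the KPP rises 4 without KPP tumour replicate 2.

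Of 31 genes of mitophagy and autophagy 17 rose and 2 fell in KPP and 10 rose in LLC, a number that was 2, 3, 6 and 3 without LLC control replicate 1, LLC control replicate 2, LLC tumour replicate 1 and LLC tumour replicate 2. Bnip3, a receptor that marks mitochondria for removal, went from 167 and 254 to 872 and 883 CPM in KPP (2.06 ± 0.25) and from 190.5 and 171 to 296 and 304 in LLC (0.73 ± 0.24, edgeR adjusted p = 0.062), and its difference was lost in 6 of the 8 fits, those without KPP control replicate 1, KPP tumour replicate 1 or any 1 LLC library. Lamp2, a lysosome membrane protein, was at 61.9 to 68.2 CPM in the LLC libraries and went from 62.3 and 69.9 to 132 and 133 in KPP (1.01 ± 0.13). Prkag3, the AMPK subunit of fast glycolytic muscle, was at 106 to 131 CPM in the LLC libraries and went from 99.9 and 137 to 16.1 and 14.5 in KPP (-2.95 ± 0.34).

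Lmod3, which nucleates thin filaments, went from 235 and 189 to 56.4 and 46.0 CPM in LLC (-2.05 ± 0.24) and from 119.5 and 151 to 92.3 and 116 in KPP (-0.38 ± 0.23, not called). Hdac4, a deacetylase that rises after denervation, went from 20.4 and 27.1 to 108 and 134 CPM in LLC (2.35 ± 0.32) and was at 23.5 to 42.0 in the KPP libraries (0.25 ± 0.31). Ostn, the secreted peptide musclin, fell in both models, with effects of -4.28 ± 0.61 in LLC and -2.98 ± 0.56 in KPP. The differences of Lmod3 and Hdac4 were not called without KPP control replicate 1, LLC control replicate 1 or LLC tumour replicate 2.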
